A study of Mus musculus with 5 samples.

Results

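The membrane-bound mucins are epithelial glycoproteins that span the plasma membrane, carry long serine- and threonine-rich domains covered in O-linked glycans, and project into the lumen. The genes chosen by symbol were *Muc1*, *Muc3*, *Muc4*, *Muc13*, *Muc15*, *Muc16* and *Muc20*, which are 7 of the 52143 genes in the deposited expression table. The table came from RNA-Seq of mouse colon tumors raised with azoxymethane (AOM), a colon carcinogen, and dextran sodium sulfate (DSS), which injures the colonic epithelium. There were 2 Control samples (Villin-Cre-RT in the series text, Villin1-Cre-ERT in the study's methods) and 3 SIGLEC12 samples (SIGLEC12-Villin1-Cre-ERT). Mice of both groups carried the tamoxifen-inducible Cre driven by the villin promoter, which is active in the epithelium of the small and large intestine. SIGLEC12 mice also carried human *SIGLEC12* knocked into the ROSA26 locus behind a floxed EGFP stop cassette, so that Cre activity switches it on. *SIGLEC12* encodes Siglec-XII, a human receptor of the sialic acid-binding family that has lost its sialic acid binding, and mice have no such gene. All mice were females of 8 weeks at the first tamoxifen injection and received tamoxifen (10 mg/ml) for 5 days, AOM (10 mg/kg) and repeated cycles of 2.0% DSS for 5 days with 14 days of recovery, with tumors taken at day 87. The series text speaks of separate mice, but the study's methods speak of technical replicate libraries, so samples of a group may come from 1 animal and n counts samples. A further Control mouse that the design mentions was not analysed here. The human transgene has no entry among the mouse genes of the table, so the group labels were not checked against it.

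Membrane mucins form the glycocalyx of the intestinal brush border, the layer that lies between the secreted mucus gel and the cell. Many are cleaved in a membrane-near SEA domain, can be shed by proteases, and carry cytoplasmic tails that contact signaling or scaffold proteins. Their O-glycans often end in sialic acid, the sugar that Siglec receptors with an intact binding site recognize. In the intestine, *Muc3* and *Muc13* are mucins of the apical surface of absorptive and goblet cells, *Muc1* and *Muc4* are found on many epithelia and in tumors, and *Muc16* is known from the ocular, airway and mesothelial surface.

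In GENCODE M21 on GRCm38, 3 of the 7 genes lie on chromosome 16. *Muc4* (ENSMUSG00000079620) spans chr16:32735886-32782391 on the plus strand, and *Muc13* (ENSMUSG00000022824) spans chr16:33794037-33819934 on the same strand. *Muc20* (ENSMUSG00000035638) runs on the minus strand over chr16:32777419-32797435 and overlaps the 3' end of *Muc4* by 4973 bases. Of the 31-base words of its listed transcript, 14.8% lie antisense in *Muc4* transcripts, so without use of strand some reads could have been assigned to either gene. The other genes are *Muc1* (ENSMUSG00000042784, chr3:89229057-89233381, plus), *Muc3* (ENSMUSG00000037390, chr5:137134922-137149322, minus), *Muc15* (ENSMUSG00000050808, chr2:110721340-110739527, plus) and *Muc16* (ENSMUSG00000109564, chr9:18495455-18674530, minus). The listed transcripts of *Muc1*, *Muc3*, *Muc4* and *Muc16* shared 0 such words with any other gene, and those of *Muc13* and *Muc15* shared 4.90% and 1.39%.

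The promoters of *Muc4* and *Muc13* are shown because these genes of chromosome 16 had group means that lay apart in opposite directions. Each window holds 250 bases before the RefSeq start site and 50 after it (RefSeq, GRCm38.p6, plus strand). *Muc13* has a pair of start sites. The *Muc4* window is chr16:32735636-32735935, and the *Muc13* windows are chr16:33793787-33794086 and chr16:33794239-33794538. Capitals mark matches on either strand to TTTAT (core of the CDX site), AGATAA (site of GATA factors), GTTAAT (core of the HNF1 site), TTCNNNGAA (STAT) and CAAAGTNCA (HNF4).
Muc4: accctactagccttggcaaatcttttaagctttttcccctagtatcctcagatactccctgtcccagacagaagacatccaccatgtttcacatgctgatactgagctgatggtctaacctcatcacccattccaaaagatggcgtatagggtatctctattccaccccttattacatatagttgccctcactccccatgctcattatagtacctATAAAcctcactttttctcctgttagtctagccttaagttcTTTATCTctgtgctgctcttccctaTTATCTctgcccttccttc
Muc13 first start: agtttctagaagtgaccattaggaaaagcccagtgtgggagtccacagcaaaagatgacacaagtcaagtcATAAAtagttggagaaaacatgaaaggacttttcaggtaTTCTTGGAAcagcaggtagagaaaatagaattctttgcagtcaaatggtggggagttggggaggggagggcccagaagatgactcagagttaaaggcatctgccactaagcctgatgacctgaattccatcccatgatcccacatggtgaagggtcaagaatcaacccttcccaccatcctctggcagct
Muc13 second start: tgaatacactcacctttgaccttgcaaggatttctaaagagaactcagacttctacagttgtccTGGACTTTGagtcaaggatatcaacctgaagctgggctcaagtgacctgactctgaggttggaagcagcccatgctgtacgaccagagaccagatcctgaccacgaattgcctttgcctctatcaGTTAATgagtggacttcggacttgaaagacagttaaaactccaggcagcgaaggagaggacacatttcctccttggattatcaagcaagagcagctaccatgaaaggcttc

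Counting from the start site as 0, the *Muc4* window held TTTAT at -35 and 6 and AGATAA at 7 and 31. The match at 6 overlaps that at 7. The match at -35 is on the minus strand, and the plus strand reads TATAAA there. The first *Muc13* window held TTTAT at -179 and TTCNNNGAA at -140, and the second held CAAAGTNCA at -186 and GTTAAT at -61. The 3 windows had no motif in common except TTTAT, which *Muc4* and the first *Muc13* window shared. Over the 32851 RefSeq promoter windows of this length, TTTAT was present in 40.0%, AGATAA in 11.2%, TTCNNNGAA in 8.30%, GTTAAT in 7.10% and CAAAGTNCA in 1.41%. These are matches of letters and not measured binding sites. RefSeq windows matched 6 of the 7 genes, all but *Muc15*.

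Values are TPM, a length-corrected measure of transcript abundance with the same sum in every sample, and the deposited scale is log2(TPM + 1). Protein-coding genes took 5.70% to 9.72% of the TPM in a sample, and the share was lower in both Control samples (5.70% and 6.73%) than in any SIGLEC12 sample (8.75% to 9.72%). The number of genes at a TPM of 1 or more was 7947 in Control replicate 1 and 9532 to 10090 in the other samples. Most genes were therefore higher in SIGLEC12 on the deposited scale: the median log2 fold change over the 10338 genes tested was 0.38, and it was 0.01 after the protein-coding TPM of each sample was rescaled to the same sum. Columnar epithelium markers (12 genes, all detected, such as *Epcam* and *Krt20*) summed to 338 and 980 TPM in Control and 1207 to 1862 TPM in SIGLEC12, and goblet cell markers (8 genes) to 286 and 641 TPM against 797 to 1028 TPM. Squamous epithelium markers (12 genes, such as the keratin *Krt5*) were present in all 5 samples. They summed to 3248 and 753 TPM in Control replicates 1 and 4 and 1241, 521 and 791 TPM in SIGLEC12 replicates 2, 3 and 4. The groups overlapped, with the highest sum in Control replicate 1. Of the 11 squamous markers tested, 9 had a lower mean in SIGLEC12 and 2 a higher one. Their median log2 fold change was -0.89, and -1.42 after that rescaling. Squamous epithelium is not part of the normal colonic mucosa, but single genes of this list need not be specific to it. Summed TPM in Control and SIGLEC12 was 57.2 to 61.1 and 52.7 to 132 for smooth muscle, 10.5 to 11.4 and 19.4 to 63.2 for fibroblasts, 4.92 to 11.6 and 6.38 to 26.2 for myeloid cells, 1.18 to 1.21 and 2.51 to 5.74 for endothelium, 0.500 to 0.914 and 0.765 to 1.81 for T cells, 0.45 to 1.25 and 1.89 to 10.3 for B and plasma cells, and 0.290 to 2.28 and 0.233 to 0.433 for mesothelium. No marker was at 0 in all samples, but all 8 T cell markers and 5 of the 6 mesothelium markers were under 1 TPM in every sample. The same held for 6 of the 8 endothelium markers and 6 of the 8 B and plasma cell markers. The part of these differences in the results that follow was not tested except where stated. In bulk tumors, fewer cells of a type and less RNA per cell cannot be told apart.

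*Muc3* and *Muc13* made up nearly all of the membrane mucin TPM. TPM corrects for the length of the transcript models used, and the listed transcripts ran from 1190 bases for *Muc4* to 7700 for *Muc16*. Whether these models are complete was not tested, which limits comparisons between genes. For *Muc3* the RefSeq start site lay 16724 bases upstream of the start of the GENCODE gene. For the other genes with a RefSeq window the distance was 0 to 452 bases. Together *Muc3* and *Muc13* took 92.7% to 97.2% of the summed TPM of the 7 genes and held the top places in all 5 samples. *Muc4* and *Muc1* took the next places in all 5. *Muc3* was first in both Control samples and in SIGLEC12 replicate 4, and *Muc13* was first in SIGLEC12 replicates 2 and 3. The *Muc3* share was 56.6% and 57.9% in Control and 40.2%, 21.3% and 49.1% in SIGLEC12 replicates 2, 3 and 4. The *Muc13* share was 36.1% and 38.2% in Control and 56.0%, 75.1% and 48.1% in SIGLEC12. For both genes the shares did not overlap between the groups. Since the pair holds most of the sum, the shares are not independent and largely follow the ratio of *Muc3* to *Muc13*. Over all pairs of tested genes, 31.7% had a log2 ratio that did not overlap between the groups. Among all genes tested, 98.5% had a lower mean TPM than *Muc13*, 98.4% a lower one than *Muc3*, 63.3% a lower one than *Muc4*, 51.3% a lower one than *Muc1* and 2.89% a lower one than *Muc15*. The summed TPM of the family was 119 and 303 in Control replicates 1 and 4 and 222, 183 and 229 in SIGLEC12, so the SIGLEC12 samples lay between the Control samples. As a share of protein-coding TPM the sum was 0.210% and 0.45% in Control and 0.251%, 0.209% and 0.236% in SIGLEC12.

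**Figure D1:**
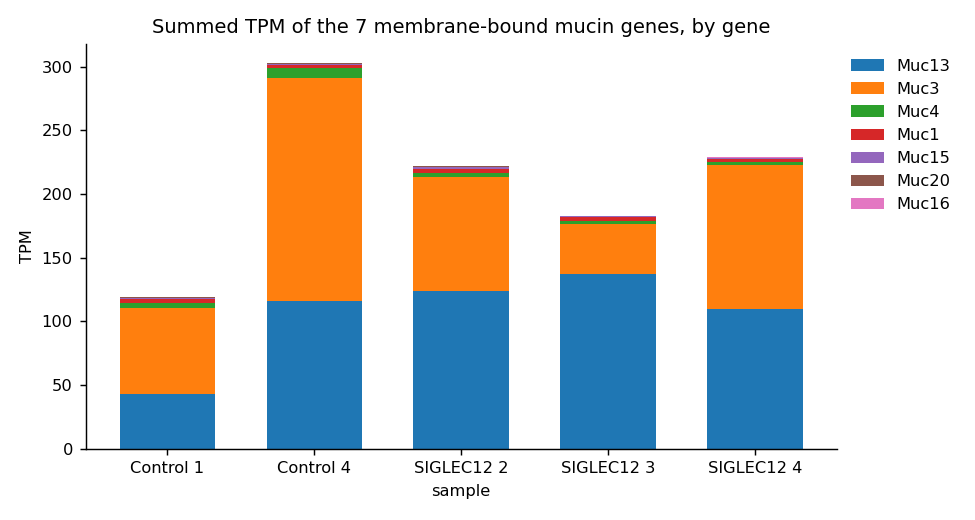
Stacked bars give the TPM of each of the 7 membrane-bound mucin genes in each sample, with the sample on the x axis and TPM on the y axis. *Muc3* and *Muc13* fill 92.7% to 97.2% of every bar, and *Muc13* is the larger of the pair in SIGLEC12 replicates 2 and 3.

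SIGLEC12 was compared with Control to ask which membrane mucins differ in tumors whose intestinal epithelium was induced to express Siglec-XII. No membrane mucin passed an adjusted p of 0.05 with a 2-fold change in limma (Benjamini-Hochberg), and neither did any other gene (0% of the 10338 tested; smallest adjusted p = 0.0974 in limma). Before adjustment, limma gave 3543 genes a p under 0.05 whatever their fold, and 4.41% of genes combined such a p with at least a 2-fold change. Of the 5 membrane mucins that could be tested, 0 passed the unadjusted threshold with 2-fold. The mean was lower in SIGLEC12 for 3 (*Muc4*, *Muc3* and *Muc15*) and higher for 2 (*Muc13* and *Muc1*). Over all tested genes, 12.8% had a lower mean in SIGLEC12. *Muc16* and *Muc20* reached a TPM of 1 in no sample and were not tested. With 2 samples against 3, the exact permutation test cannot give a p under 0.1.

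*Muc13*, a small transmembrane mucin with EGF-like repeats, had 43.1 and 116 TPM in Control replicates 1 and 4 and 124, 138 and 110 TPM in SIGLEC12 replicates 2, 3 and 4. Control replicate 1 stood far below the other 4 samples, and Control replicate 4 lay within the SIGLEC12 range. On the log2(TPM + 1) scale the means were 6.16 ± 0.99 (SD, n = 2) and 6.96 ± 0.16 (SD, n = 3). This is a log2 fold change of 0.79 with an SE of 0.42 (adjusted p = 0.215 in limma). Leaving out Control replicate 4 raised it to 1.5 (adjusted p = 0.0384 in limma), while leaving out Control replicate 1 gave 0.09 (adjusted p = 0.863 in limma). Without Control replicate 4, 10.5% of all tested genes were higher at an adjusted p under 0.05 with 2-fold, and 13.7% at an unadjusted p with 2-fold, so the call on *Muc13* there was shared with many genes. The difference thus rested on Control replicate 1, the sample with the least columnar marker RNA and the most squamous marker RNA.

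*Muc3*, a brush border mucin, varied 4.50-fold between samples and widely within each group. Its TPM was 67.6 and 175 in Control and 89.2, 38.9 and 112 in SIGLEC12. The groups overlapped, with the lowest value in SIGLEC12 replicate 3 and the highest in Control replicate 4. The log2(TPM + 1) means were 6.78 ± 0.96 (SD, n = 2) and 6.21 ± 0.79 (SD, n = 3), and the log2 fold change of -0.57 (SE 0.57) did not pass (limma adjusted p = 0.469). It became 0.11 when Control replicate 4 was left out and -1.25 when Control replicate 1 was. The entry *Muc3a*, a related membrane mucin, had log2(TPM + 1) values of 0.83 and 1.94 in Control and 1.31, 0.74 and 1.92 in SIGLEC12. *Muc3a* had the same order of samples as *Muc3*, at far lower levels.

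*Muc4*, a large membrane mucin that can bind the receptor tyrosine kinase ErbB2, had 3.48 and 8.0 TPM in Control and 3.29, 2.58 and 2.42 TPM in SIGLEC12. All SIGLEC12 samples lay below both Control samples, but SIGLEC12 replicate 2 was close to Control replicate 1. The log2(TPM + 1) means were 2.67 ± 0.71 (SD, n = 2) and 1.90 ± 0.17 (SD, n = 3). The log2 fold change was -0.76 (SE 0.31), with an unadjusted p of 0.0456 and an adjusted p of 0.140 in limma, and the exact permutation p was 0.1. Of all tested genes, 0.909% were lower by unadjusted p (0.05 or less) and 1.67% were lower without overlap between the groups. A lower log2 fold change than that of *Muc4* was found in 1.47% of tested genes. The size of the difference depended on the Control samples: leaving out Control replicate 1 gave -1.27, a setting where 1.1% of genes were lower at the unadjusted threshold with 2-fold, and leaving out Control replicate 4 gave -0.26.

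*Muc1*, a mucin with a signaling cytoplasmic tail, was the most even member. Its TPM was 3.13 and 2.32 in Control and 3.10, 2.86 and 2.95 in SIGLEC12, a range of 1.35-fold over all samples. The 3 SIGLEC12 values lay between the Control values. A log2 fold change of 0.10 with an SE of 0.17 (adjusted p = 0.661 in limma) turned to -0.32 after protein-coding rescaling. *Muc4* exceeded *Muc1* in both Control samples and in SIGLEC12 replicate 2, and *Muc1* exceeded *Muc4* in SIGLEC12 replicates 3 and 4.

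*Muc15*, a small membrane mucin, stayed near the detection filter. Its TPM was 1.40 and 0.658 in Control and 1.26, 0.574 and 0.529 in SIGLEC12, with high and low samples in each group. The group means differed by -0.18 on the log2 scale, with an SE of 0.26 (adjusted p = 0.610 in limma).

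*Muc20*, which has been described as a partner of the receptor Met, had 0.731 and 0.791 TPM in Control and 0.721, 0.478 and 0.0384 TPM in SIGLEC12. The groups did not overlap, but SIGLEC12 replicate 2 differed from Control replicate 1 by less than the Control samples differed from each other, and the exact permutation p was 0.2. *Muc16*, the gene of the CA125 antigen, had 0.0311 and 0.0418 TPM in Control and 0.0904, 0.111 and 0.429 TPM in SIGLEC12. Its groups did not overlap either, at levels where the depth behind a value is unknown (exact permutation p = 0.3). The members without overlap were thus 3 of 7, with *Muc4* and *Muc20* lower and *Muc16* higher. Across all tested genes, 1.67% had every SIGLEC12 sample below both Control samples and 54.1% had every one above. A higher value without overlap was thus common in these samples. These shares leave out *Muc16*, *Muc20* and other genes that did not enter the test, for which no share was computed.

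**Figure D2:**
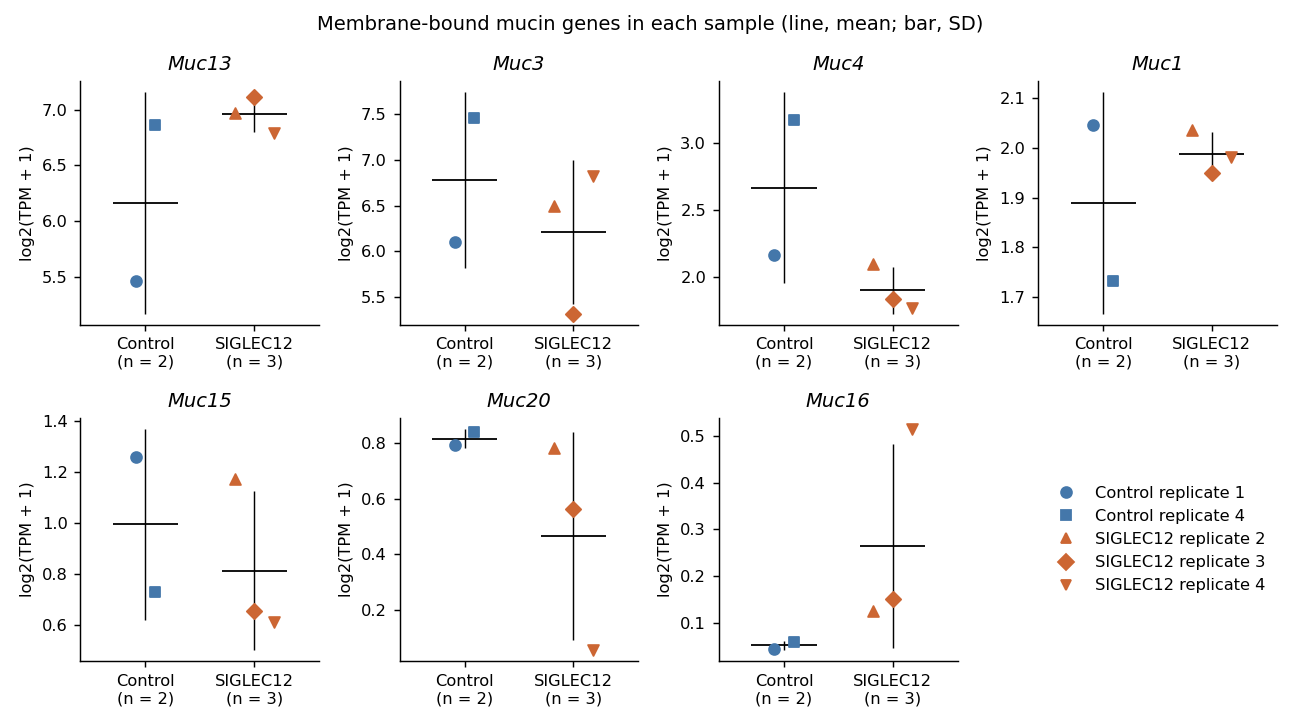
Each panel gives log2(TPM + 1) of 1 membrane-bound mucin gene on the y axis for the 2 Control and 3 SIGLEC12 samples, with a symbol per sample, the mean as a line and the SD as a bar; the y axes differ and do not start at 0. *Muc4* and *Muc20* are lower and *Muc16* higher in every SIGLEC12 sample, and the Control samples of *Muc13* lie at 5.46 and 6.87.

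Because protein-coding RNA took a smaller share of TPM in Control, the members were compared again after rescaling the protein-coding TPM. *Muc4* had a log2 fold change of -1.20 (SE 0.28; unadjusted p = 0.00532 and adjusted p = 0.457 in limma) and *Muc3* of -1.11 (SE 0.53; limma adjusted p = 0.466). *Muc15* had -0.46, *Muc1* had -0.32 and *Muc13* had 0.25, so 4 of the 5 tested members had a lower mean in SIGLEC12. The median over all tested genes after rescaling was 0.01. After rescaling, *Muc3* and *Muc4* were lower in SIGLEC12 without overlap, and this held for 16.8% of all tested genes. Of the members that are not among the tested genes, *Muc20* was also lower without overlap, and *Muc16* was higher without overlap. By unadjusted p alone (0.05 or less), 6.31% of genes were lower. With 2-fold as well, 1.37% were lower, among them *Muc4*, and 0.368% were higher. Under quantile normalization *Muc4* was also among the 1.24% of genes lower at the unadjusted threshold with 2-fold.

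Set against the mean log2(TPM + 1) of the 12 columnar epithelium markers of the same sample, all 5 tested members had a lower mean in SIGLEC12. That marker mean was 4.07 and 5.40 in Control and 5.72, 5.68 and 6.33 in SIGLEC12, a difference of 1.17 (exact permutation p = 0.1), and the relative scale takes this amount off the difference of every gene. On it 46.6% of all tested genes were lower without overlap, 14.7% were lower at the unadjusted threshold with 2-fold, and 1.25% passed as lower by adjusted p (under 0.05) with 2-fold. These calls are against 0, so they compare a gene with the markers and do not show a fall in its TPM. *Muc3* lay 2.03 and 2.06 above the marker mean in Control and 0.78, -0.36 and 0.49 from it in SIGLEC12. The Control samples, which differed widely in *Muc3* TPM, were nearly equal on this scale, and the difference between groups was -1.74 (exact permutation p = 0.1). *Muc4* differed by -1.94 (exact permutation p = 0.1; limma adjusted p = 0.0490) without overlap, and was among that 1.25% of genes. *Muc13* stood 1.39 and 1.47 above the marker mean in Control and 1.25, 1.44 and 0.46 above it in SIGLEC12. These groups overlapped, and the difference was -0.38 (exact permutation p = 0.6). *Muc1* differed by -1.07 (exact permutation p = 0.1) and *Muc15* by -1.36 (exact permutation p = 0.3), values on either side of the shift itself. *Muc1* lay at -2.03 and -3.67 from the marker mean in Control replicates 1 and 4 and -3.68, -3.73 and -4.35 in SIGLEC12, so its groups barely separated. Without Control replicate 1 the differences were -0.25 for *Muc1* and -0.43 for *Muc15*. *Muc3*, *Muc4* and *Muc15* were the 3 members among the 14.7%.

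**Figure D3:**
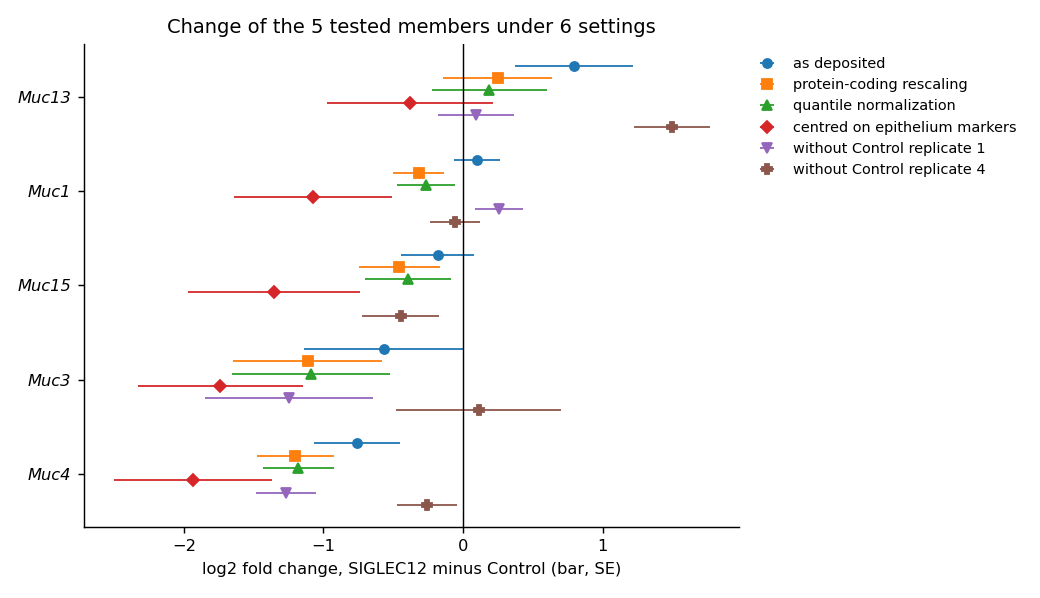
Points give the log2 fold change, SIGLEC12 minus Control, of the 5 tested members on the x axis under 6 settings, with the SE as a bar; *Muc15* has no value without Control replicate 1. *Muc4* is below 0 under every setting shown, from -1.94 to -0.26, *Muc3* is below 0 under all but 1, and *Muc13* runs from -0.38 to 1.5. Centring moves all genes down by the same 1.17.

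The ratio of a pair of genes within a sample does not depend on how that sample was scaled. Of the 10 pairs of tested members, 3 did not overlap between the groups, against 31.7% of all pairs of tested genes, so the number of such pairs among the members was close to that over all genes. The log2 ratio of *Muc4* to *Muc13* was -3.63 and -3.85 in Control and -5.24, -5.74 and -5.51 in SIGLEC12. The spread within each group was small beside the difference of -1.75 (exact permutation p = 0.1; 0.5 adjusted over the 10 pairs). The log2 ratio of *Muc3* to *Muc13* was 0.65 and 0.60 in Control and -0.48, -1.82 and 0.03 in SIGLEC12. *Muc3* thus exceeded *Muc13* by a like amount in both Control samples, and the SIGLEC12 samples were lower but spread widely (difference -1.38; exact permutation p = 0.2, 0.667 adjusted over the 10 pairs). That difference was -0.85 without SIGLEC12 replicate 3 and reached -1.77 without SIGLEC12 replicate 4. The log2 ratio of *Muc1* to *Muc4* was -0.15 and -1.79 in Control and -0.09, 0.15 and 0.29 in SIGLEC12 (difference 1.09; exact permutation p = 0.1, 0.5 adjusted over the 10 pairs). It rested on Control replicate 4: leaving that sample out gave 0.27, and leaving out Control replicate 1 gave 1.90.

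**Figure D4:**
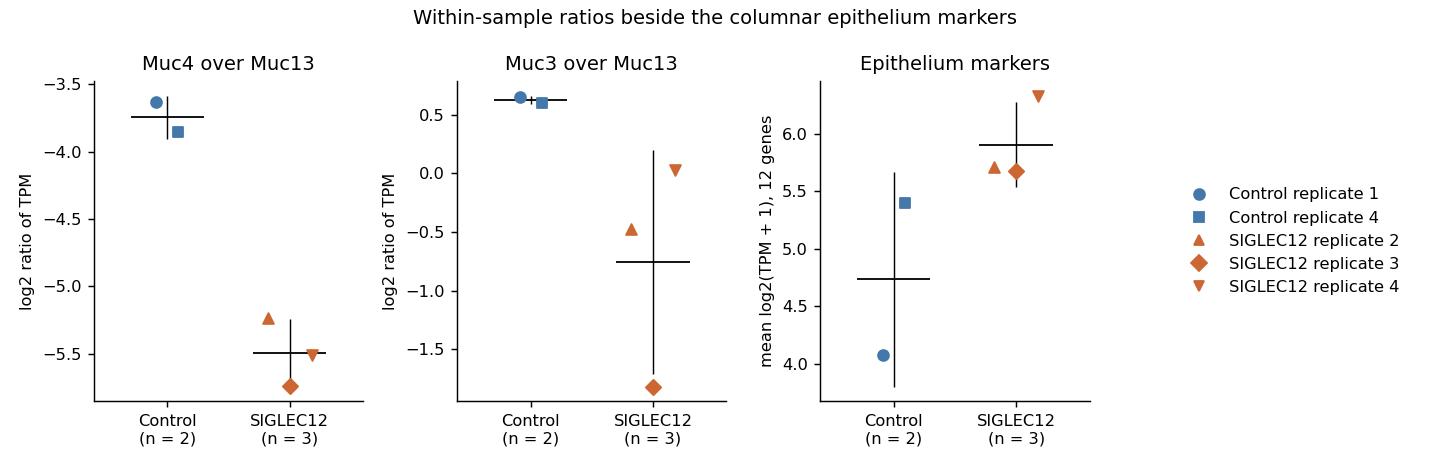
The left panels give the log2 ratio of *Muc4* to *Muc13* and of *Muc3* to *Muc13* TPM within each sample, and the right panel the mean log2(TPM + 1) of 12 columnar epithelium markers, with a symbol per sample, the mean as a line and the SD as a bar (2 Control, 3 SIGLEC12). Both ratios are lower and the marker mean is higher in every SIGLEC12 sample than in either Control sample.

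The genes with the most similar profiles were found by the root mean square (RMS) distance of centred log2(TPM + 1) values over the 5 samples among 9221 protein-coding tested genes. The nearest to *Muc13* were *Birc3*, an inhibitor of apoptosis (RMS 0.0854), *Tcf4*, a transcription factor (0.0876), and *Ntan1*, an amidase of protein N-termini (0.0921). All 3 shared the low value of Control replicate 1. The nearest to *Muc4* were *Atp12a*, a proton-potassium pump (0.153), *Ifi202b*, an interferon-inducible gene (0.210), and *Lgi2* (0.227), each highest in Control replicate 4. *Muc3* was nearest to *Muc3a* (0.322), *Gm17374* (0.341) and *Sprr3*, a cornified envelope gene of squamous epithelium (0.353). *Muc1* was nearest to *Klhl7* (0.0330), *Pfdn2* (0.0371) and *Fbxl19* (0.0412), and *Muc15* to *Cavin1* (0.0476), *Pltp* (0.0507) and *Cnksr3* (0.0538). With 5 samples and many genes such closeness is a description only.

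The mucin pathway was followed through 8 lists of 114 genes, of which 111 were in the table and 80 were tested. In limma, 0 passed an adjusted p of 0.05, 7 were higher and 1 lower at the unadjusted threshold with 2-fold, against 3.97% higher and 0.445% lower over all tested genes. On average 74 of the 80 were higher in SIGLEC12 on the deposited scale (median log2 fold change 0.53, beside 0.38 over all genes). Most genes went that way, since 12.8% of all tested genes were lower on average. After protein-coding rescaling 50 of the 80 were higher (median 0.11, beside 0.01 over all genes). The 5 tested membrane mucins had a median of -0.18 on the deposited scale and -0.46 after rescaling.

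Among secreted gel-forming mucins, 1 of 5 genes was tested. *Muc2*, the main mucin of the colonic mucus gel, had log2(TPM + 1) values of 6.74 and 8.47 in Control and 8.22, 7.32 and 8.34 in SIGLEC12 (log2 fold change 0.35, SE 0.56; limma adjusted p = 0.641). Its groups overlapped. *Muc5b*, a mucin of the airway gel, had 2.40 in Control replicate 1, 0.15 in Control replicate 4 and at most 0.14 in SIGLEC12, and was not tested. Of 14 other mucin-type membrane glycoproteins, 6 were tested and none passed the unadjusted threshold with 2-fold (median log2 fold change 0.57, and 0.10 after rescaling). The most abundant were *Cdhr5*, a protocadherin that links microvilli (0.78), and *Cd164*, a sialomucin (0.69).

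The 3 lists of O-glycan synthesis held 35 tested genes, some of which can also act on other glycans. Of these, 33 were higher on average in SIGLEC12, where 12.8% of all tested genes were lower. Without overlap 22 were higher, as were 54.1% of all tested genes. Of 10 tested genes of O-glycan initiation, 2 were higher at the unadjusted threshold with 2-fold and 0 were lower. These were *Galnt1* (log2 fold change 1.01, SE 0.26; limma adjusted p = 0.0974) and *Galnt3* (1.10, SE 0.41; limma adjusted p = 0.124), which add the first GalNAc to serine and threonine. Of 13 tested genes of core synthesis and extension, 1 passed it: *C1galt1c1*, the chaperone of the core 1 synthase, had log2(TPM + 1) values of 1.56 and 1.94 in Control and 2.67, 2.90 and 2.87 in SIGLEC12 (log2 fold change 1.07, SE 0.19; unadjusted p = 0.00113 and adjusted p = 0.0974 in limma). Of 12 tested genes of sialylation and sulfation, 3 passed it. These were the sialyltransferases *St6galnac6* (1.16) and *St3gal6* (1.04) and *Cmas* (1.07), which activates sialic acid, with limma adjusted p from 0.101 to 0.126. After protein-coding rescaling the log2 fold changes of these 6 genes were 0.53 to 0.64 and 0 genes of the 3 lists passed the unadjusted threshold with 2-fold. The medians of the 3 lists were 0.54, 0.56 and 0.71 on the deposited scale and 0.22, 0.18 and 0.32 after rescaling.

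Of 10 tested shedding proteases, 0 passed the unadjusted threshold with 2-fold (median 0.49, and 0.05 after rescaling). The most abundant were the membrane serine proteases *Tmprss2* (0.86) and *St14* (0.79). Of 16 tested partners of membrane mucins, such as receptors, adaptors and lectins, 1 was higher at that threshold. It was *Lgals3* (1.15, SE 0.44; limma adjusted p = 0.129), which encodes galectin-3, a lectin that binds glycans of membrane mucins. The median of the partners was 0.32 and turned to -0.15 after rescaling. Of 12 tested brush border and glycocalyx anchor genes, 1 was lower at the threshold and 0 were higher (median 0.55, and 0.14 after rescaling). *Slc26a3*, the apical chloride/bicarbonate exchanger of colonic surface cells, had log2(TPM + 1) values of 3.32 and 4.61 in Control and 2.53, 2.04 and 2.82 in SIGLEC12. All SIGLEC12 values were below both Control values (log2 fold change -1.51, SE 0.42; limma adjusted p = 0.0974), and the log2 fold change was -2.0 after rescaling. *Slc26a3*, *Muc4* and *Muc3* were each highest in Control replicate 4.

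**Figure D5:**
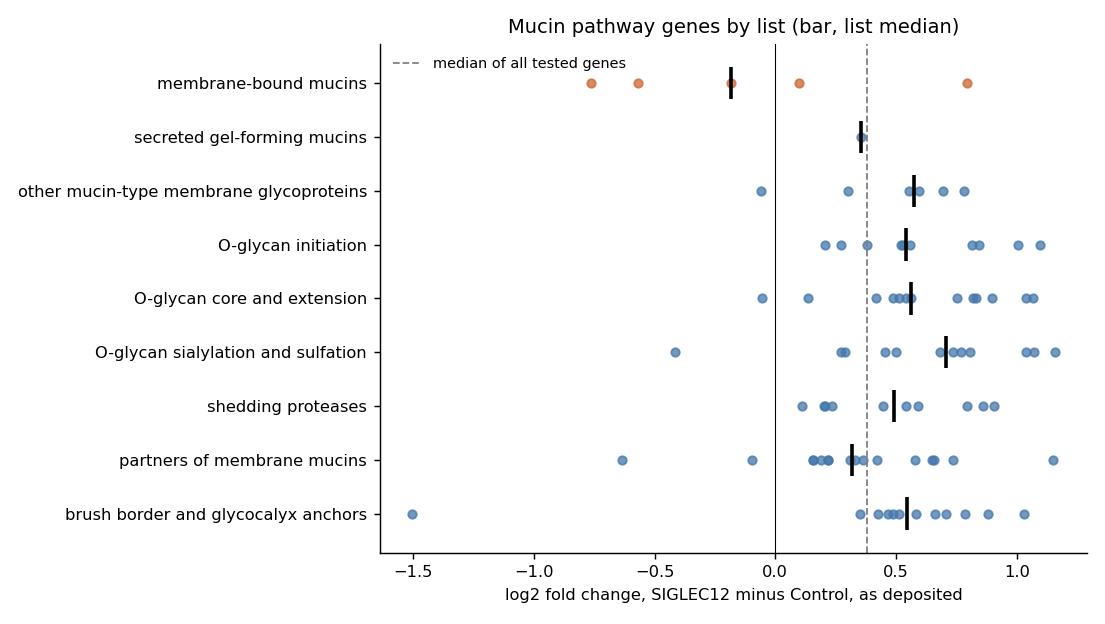
Each point is the log2 fold change, SIGLEC12 minus Control on the deposited scale (x axis), of a tested gene, in rows for the 5 membrane-bound mucins and the 8 pathway lists; black bars are list medians and the dashed line is the median of all tested genes, 0.38. The membrane-bound mucins have a median of -0.18 and run from -0.76 to 0.79, and the leftmost point among the lists is *Slc26a3* at -1.51.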

How the data were processed

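RNA was sequenced from colon tumors in 2 Control and 3 SIGLEC12 samples, per the labels. The authors quantified reads with kallisto 0.45.0 (GRCm38, per the submitters' processing notes) and deposited log2(TPM + 1) per gene. The study's methods name another kallisto version, build and library kit, and technical replicate libraries, so p-values measure only the spread between these samples. Those methods name gene-level counting with featureCounts; how the deposited TPM were brought to genes is not given in the sources used here, and read depth is unknown. Values were returned to TPM, and genes with TPM of at least 1 in at least 2 samples were tested with limma 3.58.1 (trend) in R 4.3.3, with Benjamini-Hochberg adjustment over 10338 genes. The limma fit was tested on simulated data whose noise was independent between genes. That simulation held no shift shared by most genes, as these data do, so it does not show how the test behaves under one. Single values were compared by two-sided exact permutation over the 10 splits. Other settings were a filter of TPM 5 or none, a pseudocount of 0.1, protein-coding rescaling, quantile normalization, centring on epithelium markers and leaving out each sample. Pair ratios were added after seeing the data. Members, lists and motifs were chosen with earlier results of these data known. All members were named, with the genes of each list past the unadjusted threshold with 2-fold (up to 4), otherwise its 2 most abundant. *Muc2* has 2 entries with identical values, counted as 1.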

Additional observations from a re-analysis of the deposited data

How the results depend on the processing

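Centring on epithelium markers takes 1.17 off the log2 fold change of every gene, so signs and counts under it reflect that shift. The log2 fold change of *Muc1* reversed under protein-coding rescaling (-0.32) and quantile normalization (-0.26), was -1.07 when centred, and ran from -0.059 to 0.26 with each sample left out. That of *Muc3* was -1.74 when centred, otherwise ran from -1.25 to 0.11, and reversed without Control replicate 4. That of *Muc13* was -0.38 when centred and ran from 0.092 to 1.5 (without Control replicate 4, limma adjusted p = 0.0384), and that of *Muc4* was -1.94 when centred (limma adjusted p = 0.0490) and ran from -1.27 to -0.26. *Muc15* kept its direction under all settings that gave a value. Members past 2-fold at an adjusted p of 0.05 numbered 1 lower when centred, beside 1.25% of all tested genes. At an unadjusted p, 1 was lower under rescaling (1.37% of all tested genes), 1 under quantile normalization (1.24%) and 3 when centred (14.7%). With samples left out, members higher numbered 0 to 1 at either p and members lower 0 to 1 at an unadjusted p. Pathway genes higher at an unadjusted p numbered 13 with a pseudocount of 0.1, 4 with no filter, 0 under rescaling, quantile normalization and centring, and 0 (without Control replicate 1) to 29 (without Control replicate 4) with samples left out, where 0 to 21 passed at an adjusted p. Pathway genes lower at an unadjusted p numbered 2 under rescaling (1.37% of all tested genes), 2 under quantile normalization (1.24%) and 6 when centred (14.7%). At an adjusted p, 1 was lower when centred (1.25%). Other than for centring, the cause was not tested. With each sample left out, the difference in log2 ratio ran from -1.88 to -1.63 for *Muc4* to *Muc13*, from -1.77 to -0.85 for *Muc3* to *Muc13* and from 0.27 to 1.90 for *Muc1* to *Muc4*.

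No paired analysis was possible because Control and SIGLEC12 have just 1 number, replicate 4, in common. With 1 Control sample left, limma takes the lone sample to vary like the others. The filter of TPM 5 gave no value for *Muc1*, *Muc4* and *Muc15*, and *Muc15* had none without Control replicate 1 or SIGLEC12 replicate 2. The 2 Control samples differed widely and limit every comparison.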
